A study of Drosophila melanogaster with 2 samples.

Results

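The trichome genes examined were ovo, whose somatic product is Shavenbaby, and 9 epidermal effector genes: sha, f, sn, m, dyl, mey, neo, nyo and tyn. These 10 genes were chosen by name from the 13945 protein-coding genes on the 6 chromosome arms of the dm6 genome. The choice was made with earlier results of these data known. Binding was read from deposited peak lists of a chromatin immunoprecipitation experiment with sequencing (ChIP-seq). A summit, the position of highest signal in a peak, was assigned to an effector gene if it lay in the gene's span or within 1 kb upstream of it, and to ovo if it lay within 50 kb of its span on either side. By this rule 9 of the 3793 summits of the replicate-thresholded list belonged to 4 of the 10 genes, ovo, sn, nyo and tyn, and 6 genes had none. In the narrower window of span and 1 kb upstream, 3 of the 10 held a summit, against 16.2% of all protein-coding genes. Long genes hold summits more often: the share was 31.4% for spans of 5 to 25 kb and 59.9% for longer spans, the classes of the 10 genes, which were not above it (2 of 8 and 1 of 2).

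Chromatin was taken from whole Drosophila melanogaster embryos of both sexes, aged 4 to 24 h, of a transgenic line in which tiptop (tio) carries GFP at its C-terminus. Tio is a DNA-binding zinc finger protein closely related to Teashirt (Tsh). Fragments of 200 to 800 bp were precipitated in 2 biological replicates, which form 1 group. The labels' description names an antibody against GFP, while their antibody field names tio. There is thus no second condition and no test between conditions. The promoter that drives the fusion, and whether an untagged tio gene was also present, are not stated in the labels. Because whole embryos were used, strong binding in few cells and weak binding in many cells cannot be told apart, and the epidermis was not separated from other tissues.

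Trichomes are actin-rich apical extensions of epidermal cells, and on the ventral side of the embryo they form the denticle belts that alternate with naked cuticle. Shavenbaby is the transcription factor that switches on the genes that build them, and its own gene is regulated in the epidermis by several enhancers spread over the DNA upstream. The effectors act at different layers of the cell: sha, f and sn act on the actin core, while m, dyl, mey, neo, nyo and tyn encode zona pellucida domain proteins that join the apical membrane to the overlying matrix. Tsh and Tio are trunk factors that take part in patterning this cuticle.

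The windows of 201 bp centred on 6 of the 9 summits are shown because they carry the strongest binding in each of the better occupied loci, both summits upstream of ovo, and a match to the Ovo core CNGTTA that lies in a repeat in tyn. All are from the Release 6 genome (dm6), plus strand, 5′ to 3′. Capitals mark the motif matches named next, while matches to the A and T rich word TTAAAA are left in lower case. In the first sequence the capitals mark TAACCGT and TAACTG, which hold the Ovo core on the minus strand. In the next pair they mark GAGAG, the core of the Trl (GAGA factor) site, on the minus and the plus strand. In the sn window and the upper tyn window they mark CTTTGA, the core of the TCF site, on the minus strand, and in the last the Ovo core on the plus strand.
ovo upstream, X:5041672-5041872: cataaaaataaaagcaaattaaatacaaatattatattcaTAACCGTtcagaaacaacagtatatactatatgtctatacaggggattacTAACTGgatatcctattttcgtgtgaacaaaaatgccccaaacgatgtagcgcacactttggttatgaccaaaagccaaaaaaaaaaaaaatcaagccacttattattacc
ovo upstream, X:5046651-5046851: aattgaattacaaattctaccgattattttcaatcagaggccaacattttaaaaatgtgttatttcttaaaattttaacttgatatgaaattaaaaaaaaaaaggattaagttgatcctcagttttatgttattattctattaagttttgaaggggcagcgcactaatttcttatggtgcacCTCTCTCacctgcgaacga
CG32767 intron in the ovo window, X:5083696-5083896: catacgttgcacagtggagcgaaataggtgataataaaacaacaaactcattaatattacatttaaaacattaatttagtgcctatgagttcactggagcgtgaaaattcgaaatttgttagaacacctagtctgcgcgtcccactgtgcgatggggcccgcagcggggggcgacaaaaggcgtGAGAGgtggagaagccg
sn intron, X:7972454-7972654: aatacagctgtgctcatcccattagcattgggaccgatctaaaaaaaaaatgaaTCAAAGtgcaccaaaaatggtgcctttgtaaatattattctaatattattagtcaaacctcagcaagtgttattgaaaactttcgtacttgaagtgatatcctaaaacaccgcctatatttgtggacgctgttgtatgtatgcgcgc
tyn, upstream of an internal start, X:175671-175871: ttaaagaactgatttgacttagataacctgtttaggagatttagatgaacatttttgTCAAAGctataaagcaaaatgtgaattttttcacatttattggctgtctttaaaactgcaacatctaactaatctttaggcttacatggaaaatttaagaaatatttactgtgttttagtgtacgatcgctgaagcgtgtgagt
tyn, in an INE-1 element, X:181571-181771: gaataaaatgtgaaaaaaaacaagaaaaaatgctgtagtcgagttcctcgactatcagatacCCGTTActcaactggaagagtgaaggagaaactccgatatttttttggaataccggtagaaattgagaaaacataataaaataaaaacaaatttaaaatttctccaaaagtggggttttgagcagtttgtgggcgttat

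The window of ovo, by rule the widest, held 5 thresholded summits, and 31.7% of all protein-coding genes had at least as many within 50 kb. None of the 5 lay in ovo itself. Of these summits, 2 lay upstream of the gene and 3 past its end, in the introns of neighbouring genes. The gene ovo (FBgn0003028) spans X:5048273-5070929 on the plus strand, 22657 bp, with 3 transcription starts, at 5048273 for the transcripts RB and RE, at 5063844 for RC and at 5064233 for RA and RD. The signal of a peak is the authors' own value, with a scale that no source states, and rank 1 is the highest signal of a list.

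The summit nearest to an ovo start lay at X:5046751 (peak 5046533 to 5046968), 1522 bp upstream of the start at 5048273. The pooled list gave it a signal of 197 (rank 1202), replicate 1 a signal of 105 (rank 1225) and replicate 2 a signal of 88.9 (rank 1430). A second summit lay at X:5041772 (peak 5041554 to 5041989), 6501 bp upstream of the same start, where the pooled signal was 142 (rank 1962), that of replicate 1 was 81.4 (rank 1829) and that of replicate 2 was 63.9 (rank 2365). In both replicates the nearer summit was thus the higher. Both lay outside protein-coding genes and inside the long noncoding RNA gene CR44833, which runs on the minus strand from 5063868 to 4956646 and overlaps the upstream part of ovo.

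The highest signal of the ovo window was outside the gene, at X:5083796 (peak 5083655 to 5083903), 35523 bp past the upstream ovo start. It lay in an intron of CG32767, 771 bp upstream of the start that 5 of its transcripts share. Here the pooled signal was 292 (rank 608), and the replicates gave 156 (replicate 1, rank 618) and 138 (replicate 2, rank 639). The remaining summits, at X:5087093 and X:5094147, lay in an intron of rugose (rg), which encodes a neuronal BEACH domain protein, and of CG15465, a gene annotated with the same span. At X:5087093, 1334 bp past the rg start, the pooled signal was 175, that of replicate 1 was 106 and that of replicate 2 was 67.6. At X:5094147, 8388 bp past that start, it was 157, 87.5 and 67.9 in the same order. When each summit was given to the protein-coding gene with the nearest start, the 2 upstream summits stayed with ovo and the other 3 went to CG32767 and to CG15465, whose start at 5085759 is also that of rg.

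**Figure D1:**
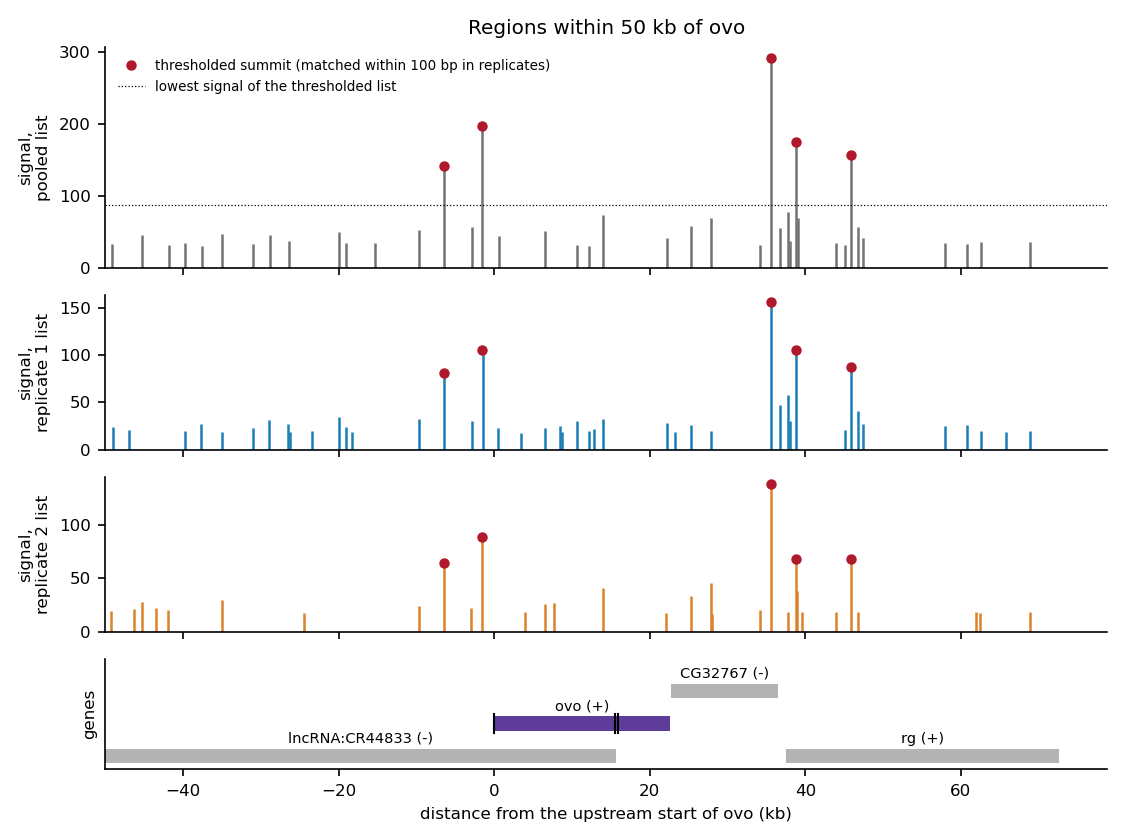
Signal (linear axis, the authors' unit) of every region within 50 kb of ovo in the pooled, replicate 1 and replicate 2 lists, by distance in kb from the upstream ovo start. Red points are the 5 thresholded summits, the dotted line is the lowest signal of the thresholded list (87.5), bars below are genes cut at the window's ends, and black ticks are the 3 ovo starts. The same 5 summits lead all lists, and the ovo span itself stays below the dotted line.

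Within the ovo span the pooled list held 6 weaker regions, replicate 1 held 10 and replicate 2 held 5. The strongest pooled region had its summit at 5062208, 1636 bp upstream of the RC start and 2025 bp upstream of the RA and RD start, with a signal of 73.1 (rank 4867). Replicate 1 had a region there with a signal of 32.2 (rank 7970), and replicate 2 had one with 40.7 (rank 4494). It was the highest region of the ovo span in each of these lists, at a rank outside the first 3793 in each.

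Upstream of ovo the next protein-coding gene is CG12680, whose end lies 49884 bp from the ovo start, so the 50 kb on that side are nearly free of other protein-coding genes. This stretch held 16 regions of the pooled list, 17 of replicate 1 and 11 of replicate 2. In its distal 40 kb the pooled list held 12 regions, none of them thresholded, and the highest, 19943 bp upstream of ovo, had a signal of 49.8 (rank 9754). The highest regions of the distal stretch were different ones in the replicates, 19948 bp upstream with a signal of 35.0 in replicate 1 and 35036 bp upstream with 29.9 in replicate 2. Binding upstream of ovo that passed the threshold was thus found within 6501 bp of its start. Farther out, from 50 to 100 kb upstream, there were 10 pooled regions, the strongest at 62807 bp with a signal of 61.0 (rank 6480). Replicate 1 gave that region 49.4 (rank 3760), while the highest region of replicate 2 in the same interval was another, at 99466 bp, with 27.0 (rank 9838).

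The number of summits around ovo was above the median of all genes and not rare. The median protein-coding gene had 3 thresholded summits within 50 kb (interquartile range 1 to 5). In the pooled list the ovo window held 40 regions against a median of 22 (interquartile range 15 to 31), and 9.01% of genes had at least as many. Windows grow with the gene, so densities are given too: the ovo window of 123 kb had 4.08 thresholded summits and 32.6 pooled regions per 100 kb, against 2.83 and 22.4 over the 6 arms. Among the 1172 genes more than 200 kb from ovo that also had 5 summits within 50 kb, the nearest highest signals were those around DZIP1 and Pp1alpha-96A (293 for both, which share the summit as neighbours) and beta-PheRS (293), at absolute log2 ratios to ovo of 0.0013, 0.0013 and 0.0037. These 3 genes are like ovo in count and highest signal of the pooled list, and nothing else was compared.

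**Figure D2:**
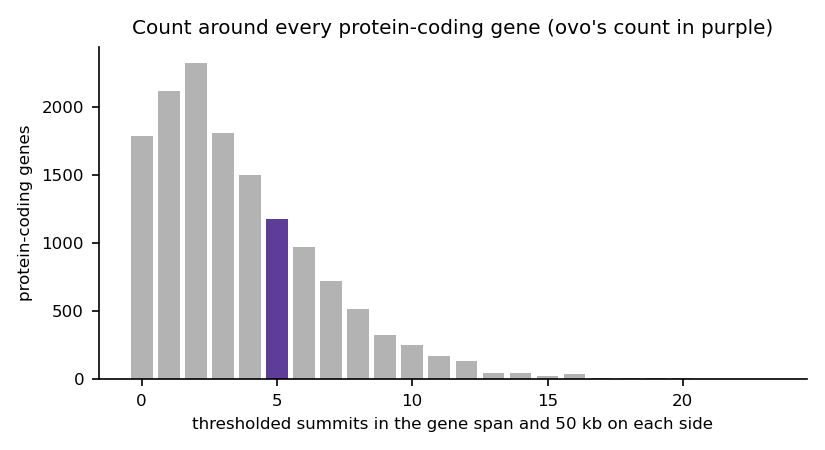
Number of protein-coding genes (linear axis) by the count of thresholded summits in the gene span and 50 kb on each side, with the bar of ovo's count of 5 in purple. The count of ovo lies above the median of 3, at the upper quartile of all genes.

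Among the actin effectors, sn was the one with a thresholded summit, and it was among the stronger peaks of the list. The gene sn encodes the fly fascin, an actin bundling protein, and spans X:7964024-7986601 on the plus strand (FBgn0003447). Its summit at X:7972554 (peak 7972447 to 7972649) lay in an intron, 2851 bp past the start that RA, RB and RE share. The pooled signal was 258 (rank 749), and the replicates both gave 129 (rank 867 in replicate 1 and 737 in replicate 2). Both replicates were level here, with a log2 ratio of 0.0097. The next pooled regions of sn were weaker, at 7976145 (79.4), 7978243 (79.2) and 7970540 (70.0).

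A further region of sn was high in both replicates and low in the pooled list. Replicate 1 had a summit at X:7968666 with a signal of 66.0 (rank 2491) and replicate 2 had one at 7968671 with 78.1 (rank 1768). The nearest pooled region, 109 bp away at 7968775, had a signal of 33.0 (rank 24572). This distance is beyond the 100 bp used for matching, so the region had no matched pooled value, and it was singled out for this difference. At the 9 matched summits the pooled signal was 1.95 to 2.11 times the mean of both replicates. The region lay 4642 bp past the first sn start and 430 bp upstream of a start of swiss cheese (sws), a phospholipase gene on the other strand.

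The other actin effectors had no thresholded summit. The gene f (FBgn0262111) encodes Forked, which crosslinks actin bundles, and spans X:17232942-17280964 with 8 transcription starts. It had 4 pooled regions, and the strongest, at 17237726, was just short of the thresholded list, whose lowest signal was 87.5. The pooled signal was 83.2 (rank 4071), with 47.2 (rank 4013) for replicate 1 and 33.7 (rank 6226) for replicate 2. The next pooled region of f had a signal of 54.8. The gene sha (FBgn0003382), needed for the actin assembly of trichomes, had no region of any of the lists in its span of 12150 bp or within 1 kb upstream. The nearest region of replicate 1 lay 2480 bp from this window and that of replicate 2 lay 7268 bp away, both past the gene's end. The nearest pooled region, itself thresholded, was 34062 bp away with a signal of 418.

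Of the 6 zona pellucida genes, 2 had a thresholded summit, tyn and nyo. The gene tyn (FBgn0284435) spans X:140318-200663 on the plus strand and has 4 starts. Its stronger summit at X:175771 (peak 175553 to 175988) lay 202 bp upstream of the internal start at 175973, which the transcripts RA, RB and RC use, and in an intron of the longer transcripts. It had a pooled signal of 157 (rank 1690), and signals of 76.1 (rank 2023) and 79.7 (rank 1714) in replicates 1 and 2. Of the effector summits this was the only 1 within 1 kb of a start. Around the 3 upstream starts, at 140318, 142208 and 142853, there was no thresholded summit.

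The second tyn summit, at X:181671 (peak 181453 to 181888), lay 5698 bp past the same internal start and had a pooled signal of 98.6 (rank 3236), with 46.5 (rank 4082) and 47.1 (rank 3624) in replicates 1 and 2. This summit lies inside an annotated transposable element of the INE-1 family, X:181592-181953, 362 bp. In its 201-bp window 16 of 177 words of 25 bases occurred more than once in the 6 arms, up to 33 times, from 65 to 26 bases before the summit. No other window of the 9 had such a word, against 4.03% of all thresholded windows, and 0.369% of all thresholded summits lay in an annotated transposable element. How reads were assigned among copies was not tested. Without this summit tyn had 1 and the trichome genes had 8, still in 4 genes.

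The gene nyo (FBgn0039852) spans 3R:31543032-31566165 and had the weakest of the 9 summits, at 31551171 (peak 31550953 to 31551388), in an intron 8008 bp past its start. The pooled signal was 91.0 (rank 3588), against 34.9 (rank 6729) for replicate 1 and 54.9 (rank 2931) for replicate 2. It thus ranked far lower in replicate 1, and of the matched thresholded peaks 3.65% had a log2 ratio of replicate 1 to replicate 2 as low as its -0.66. In replicate 1 the highest region of nyo was another, at 31549366, with a signal of 40.6 (rank 5069), where the pooled list had 67.4 (rank 5491) and replicate 2 had 29.4 (rank 8165).

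**Figure D3:**
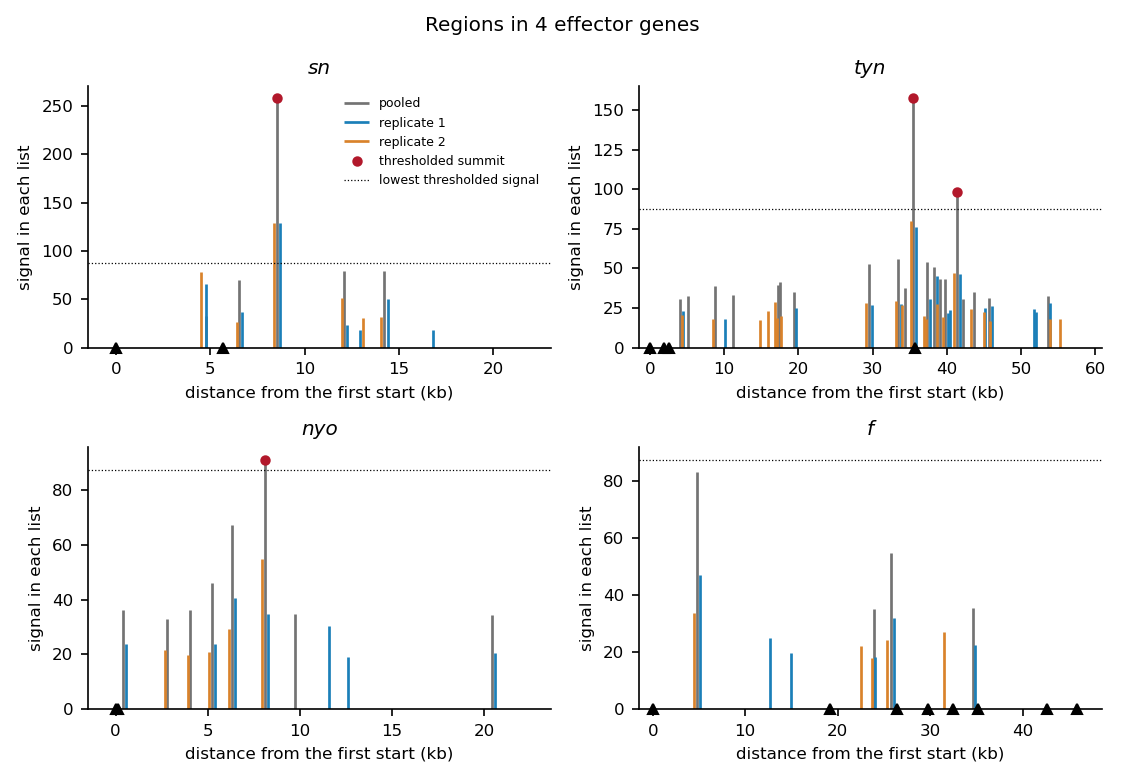
Signal (linear axis, the authors' unit) of regions in sn, tyn, nyo and f by distance in kb from the first start, in the pooled list and both replicates, whose lines are drawn slightly to the right (replicate 1) and left (replicate 2) of their true position. Triangles are transcription starts, red points thresholded summits, and the dotted line the lowest thresholded signal of 87.5, which the strongest region of f (83.2) does not reach.

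The remaining zona pellucida genes had weak regions or none. The gene mey (FBgn0039851), which lies 36039 bp from nyo on 3R, had 1 pooled region at 31505332 with a signal of 46.4 (rank 11442), and replicate 2 gave 24.4 (rank 12441) there. The region of mey in replicate 1 had its summit at another position, 31505506, with 18.1 (rank 29942). In dyl (FBgn0066365), at 3L:4294004-4307718, the stronger of 2 pooled regions, at 4302192, had a signal of 44.7 (rank 12455). Both replicates had a region there, at 4302178 with 18.7 in replicate 1 and at 4302211 with 22.1 in replicate 2. The highest regions of dyl lay elsewhere in the replicates, at 4308239 with 24.4 in replicate 1 and at 4304728 with 26.6 in replicate 2. The latter was near the second pooled region, at 4304798 with 38.1. The gene neo (FBgn0039704), at 3R:29819131-29825800, had 1 pooled region with a signal of 34.1 (rank 22966), 1 in replicate 1 with 18.5 (rank 28651) at another position, and none in replicate 2. For m (FBgn0002577), at X:11754273-11769508, no list had a region in the window, and the nearest pooled region lay 6935 bp away. All of these ranks are far down lists of 30000 regions, which include background.

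**Figure D4:**
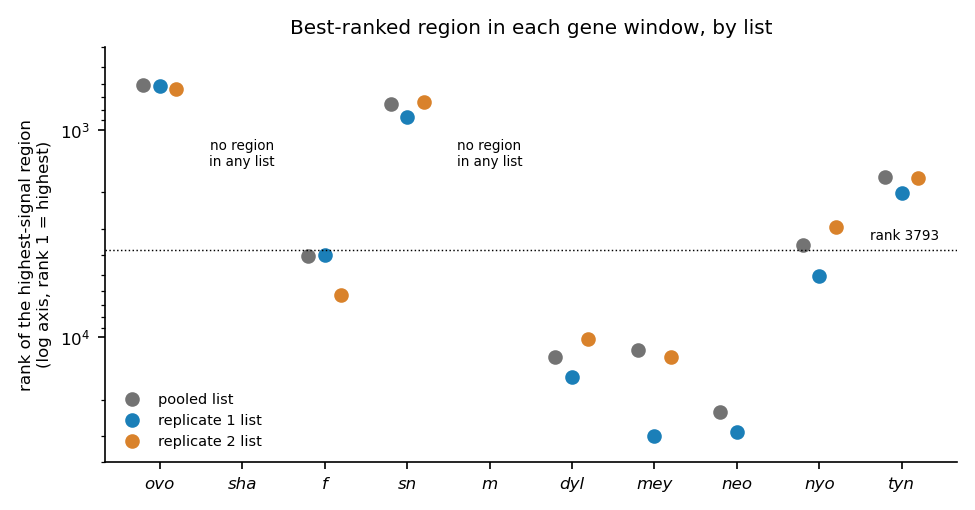
Rank of the highest-signal region in each gene's window (log axis, rank 1 at the top) in the pooled list and each replicate list. The dotted line is rank 3793, the length of the thresholded list. The windows of ovo, sn and tyn rank above it in all 3 lists, nyo in the pooled list and replicate 2, f lies just below in the pooled list and replicate 1, and sha and m have no region.

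Counted like all other genes, by the span and 1 kb upstream, 3 of the 10 trichome genes held a thresholded summit (sn, nyo and tyn), against 16.2% of all protein-coding genes. All 10 trichome genes have spans over 5 kb. Of the 8 with spans of 5 to 25 kb, 2 held a summit, against 31.4% of all genes of that class, and of the 2 longer genes, f and tyn, 1 did, against 59.9%. Within these span classes the trichome genes were therefore not above the background. A pooled region of any rank lay in the same windows of 8 of the 10, against 40.3% of all protein-coding genes, and 33.8% of the genes with spans of 5 to 25 kb had none, as sha and m. The windows of the trichome genes held 81 regions of the pooled list, 85 of replicate 1 and 72 of replicate 2.

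In signal and in replicate balance, the 9 summits had medians near those of the thresholded list. Single summits were spread widely, with ranks from 608 to 3588. Their median signal was 157, against 145 for all thresholded peaks (range 87.5 to 2078), and 6 of 9 were above that median. All 9 were matched within 100 bp in both replicates, and 3504 of all thresholded peaks were. The log2 ratio of replicate 1 to replicate 2 had a median of 0.17 (SD 0.37, range -0.66 to 0.65) at the 9 summits and of 0.16 (SD 0.46) at all matched peaks. Replicate 1 was the higher at 6 of the 9, among them all 5 of the ovo window, and at 67.6% of all matched peaks. Of the 9 summits, 7 were among the first 3793 regions of replicate 1 and 9 among those of replicate 2. The same shares of all thresholded peaks were not computed, so these 2 counts have no background. The ratios describe these libraries, since the replicate lists may be scaled differently.

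**Figure D5:**
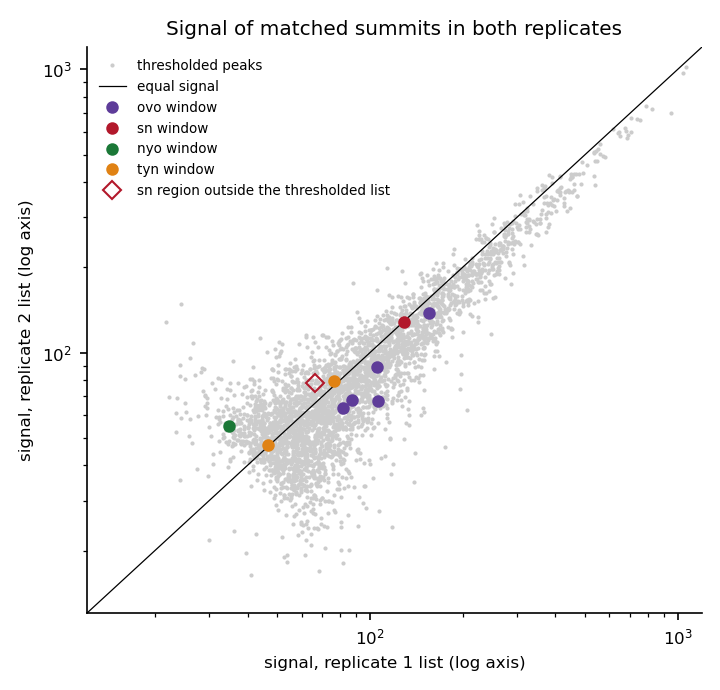
Signal in the replicate 2 list against signal in the replicate 1 list (both log axes) for the 3504 matched thresholded peaks (grey) and the 9 summits of the trichome genes (coloured by window). The diamond is the sn region outside the thresholded list (66.0 and 78.1). The line marks equal signal, and the nyo summit (34.9 and 54.9) lies at the left edge of the cloud.

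In position, 7 of the 9 summits lay in introns of protein-coding genes and 2 lay between them, against 56.1% and 38.8% of all thresholded summits. Within 1 kb of a protein-coding start lay 2 of the 9, against 43.8% of all, and the median distance to such a start was 2851 bp against 1414 bp. Effector summits were taken only from the gene's span and 1 kb upstream, and all 10 genes have spans over 5 kb. The intron count and these distances thus partly follow from the rule and cannot be read as traits of the trichome genes. The G+C content of the 201-bp windows had a median of 31.3% and ranged from 24.4% at X:5087093 to 45.8% at X:5083796. Over all thresholded windows the median was 33.3%, with a 5th to 95th percentile range of 24.9% to 44.3%.

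Matches to 14 short motifs were searched on both strands within 100 bp of each summit. The Ovo core CNGTTA was present at 3 of the 9 summits, against 24.0% of all thresholded summits. These were X:5041772 upstream of ovo, where it matched 60 and 10 bases before the summit and the first match also fitted the longer ACNGTTA, X:5094147 in rg, and the tyn summit in the INE-1 element. There, 8 of the repeated 25-base words hold the whole match, so without this summit 2 of 8 had the core. The longer ACNGTTA was present at 1 of 9, against 7.91% of all, and overlaps the core by construction. The TCF core CTTTGA, bound by the nuclear effector of Wingless signalling, was present at 3 of 9 (sn, tyn at X:175771 and X:5094147), against 13.0%. The Trl core GAGAG was present at 2 of 9, both in the ovo window, against 20.8%. The Sox core ATTGTT was present at 2 of 9 (nyo and X:5087093), against 24.8%, and the homeodomain core TAATTA at 1 of 9 (X:5087093), against 19.1%. An A and T rich word, TTAAAA, was present at 6 of 9, against 54.0%. No match was found at the 9 summits for the Forkhead core TGTTTAC (5.69% of all), the GATA core GATAAG (10.7%), the Grainyhead core ACCGGTT (0.606%), the DREF/BEAF-32 core TATCGATA (1.48%), the Scalloped core CATTCC (6.59%), the ETS core CCGGAA (2.98%) or CAGTGC (16.4%). Several counts depend on the width searched. Within 50 bp of the summit the Trl, Sox and ACNGTTA counts were 0. Within 250 bp Trl and TCF were each present at 5 of 9 summits, Scalloped at 3, CAGTGC at 2 and GATA at 1. The shares of all summits within 50 bp and 250 bp were not computed. These counts therefore cannot be set against the shares above, which are for 100 bp. A match is a description of the letters, and with 9 summits each count within 100 bp stands beside the share of all summits without a test.

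Other genes of the pathway held thresholded summits in 18 of 57 cases (31.6%), against 16.2% of all protein-coding genes, with no adjustment for gene length. Of all genes with spans of 5 to 25 kb 31.4% held one, and of those with longer spans 59.9%. The 57 spans ran from 1540 bp (tal) to 136839 bp (dpy) and were not divided into these classes. No excess can therefore be read from the 16.2%. Among 17 regulators of ovo or of Shavenbaby activity, 7 held a summit. The strongest was at spi, which encodes the EGF receptor ligand Spitz, with 3 summits and a highest signal of 617 (350 in replicate 1 and 263 in replicate 2). Next were Ubr3, a ubiquitin ligase needed to process Shavenbaby (270, and 163 and 113 in the replicates), and hth, a homeodomain cofactor of Hox proteins (5 summits, highest 193, and 111 and 87.2 in the replicates). The other regulators with a summit were rho, Ubx, Egfr and wg, with pooled signals from 94.3 at wg to 130 at rho. Neither tsh nor tio, the gene of the tagged protein, held one.

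Of 13 other actin genes of apical extensions, 5 held a summit. They were Arp2, a subunit of the complex that nucleates branched actin (303, and 145 and 156 in the replicates), ena, which promotes filament elongation (253, and 128 and 125), mwh, which limits the number of wing hairs (2 summits, highest 205, and 123 and 79.4), Fim, an actin bundler (6 summits, highest 176, and 95.2 and 79.7), and jv, which shapes bristles (124, and 70.1 and 52.3). Planar polarity genes held a summit in 4 of 12 cases. The receptor gene fz had 8 summits in a span of 94297 bp (highest 359, and 188 and 172 in the replicates), pk had 2 (highest 205, and 101 and 112), and the protocadherin genes ds (202, and 102 and 98.4) and ft (120, and 67.6 and 52.4) had 1 each.

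Of 7 further zona pellucida genes, 2 held a summit, cyr (151, and 88.5 and 56.3 in the replicates) and dpy, which encodes a giant matrix protein (144, and 77.6 and 69.4). Of 8 cuticle and pigment genes none held one in the span or within 1 kb upstream, among them y, needed for black pigment, and kkv, the chitin synthase gene. Their best pooled region ranked 7978, at Gasp. With 5 kb upstream 2 of the 8 held a summit, and 1 did when each summit went to the gene of the nearest start. The list counts stand beside the 16.2% of all genes without adjustment for gene length, and their differences from one another were not tested.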

How the data were processed

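ChIP-seq of tio-GFP embryos was deposited as narrow peak lists on dm6, with columns for signal, -log10 q, and summit offset. Per the notes deposited with the samples, each replicate list came from that replicate and a control, the pooled list from both replicates and the control, and the thresholded list from these by irreproducible discovery rate, which scores how well regions keep their rank in both replicates. The 3793 thresholded peaks were the first 3793 pooled regions by signal. Presence in that list thus followed the pooled rank, and a peak in it need not rank as high in each replicate. No source used here names the aligner, the peak caller or the threshold. The authors' signal has no stated scale, and served to rank and describe regions within a list; the deposited -log10 q was not used to filter. Read depth is unknown, so no interval that needs it is given. Lists on dm3 were not used.

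Summits on the 6 arms were placed with the Ensembl annotation BDGP6.54 (release 115) and the Release 6 sequence from NCBI RefSeq, with Python 3.11.15, pandas 2.3.3 and numpy 2.4.6. Replicate summits matched within 100 bp. No columns of other samples were found, 0 signal values were identical between replicates, and 7 thresholded peaks repeat the interval of another. Placement, matching and motif search were checked on simulated data, with 200 of 200 summits placed, 13945 of 13945 gene counts equal to a direct search, 200 of 200 match states equal and 1 of 1 planted motif found. Members and lists were chosen with earlier results of these data known, and 2 motifs were added from them. Named genes were the 10 members, the genes of each related list with a summit (the 3 highest where more than 5 had one), genes sharing a member's summit and the 3 genes most like ovo; other genes named were chosen after their values were seen. No test was run, because there is 1 group.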

Additional observations from a re-analysis of the deposited data

How the results depend on the processing

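No paired analysis was possible because both replicates belong to 1 group. Of the 40 values recomputed for the main counts, medians and signals, 36 stayed within 1.5 times the reported count or within 1 SD and 4 did not. The settings that changed the upstream extension kept the 50 kb flank of ovo, so its 5 summits could not change there. In its own span and 1 kb upstream ovo held 0, and the effector windows held 4 of the 9 summits. With thresholded peaks above the median signal, 11 related genes held a summit in place of 18. With each summit given to the gene of the nearest start, ovo held 2 in place of 5. In that setting mey held 1 in place of 0, so 5 members held a summit in place of 4, which is within the limits. The highest signal of the ovo window was 138 to 156 in a single replicate in place of 292, on the replicates' own scale. With equally many regions of 1 replicate, 3 to 4 members held a summit (nyo had none without replicate 2), the member windows held 10 to 11, the ovo window 5 to 6, and related genes with one numbered 18 either way. Of the 74 values for single motifs and lists, 60 stayed within the same limits and 14 moved. Of those that moved, 8 are the motif counts and 2 the cuticle and pigment counts given with those results. The others are lists: with peaks above the median signal, regulators with a summit numbered 3 in place of 7 and further zona pellucida genes 1 in place of 2, which the nearest start also gave. With the span alone, planar polarity genes numbered 2 in place of 4. Without the tyn summit in the INE-1 element, an alternative chosen after seeing the data, the median log2 replicate ratio was 0.21 and the median G+C 30.8%. The totals of 40 and 74 include this alternative, and most of its values could not move. The gene tyn kept its other summit, and the one left out held only the Ovo core and TTAAAA among the motifs. Precision is limited by 2 replicates, 9 summits and an unknown depth.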

Other observations

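The sn region that was high in both replicates and low in the pooled list belonged to a wider set, of regions without a thresholded summit nearby. Of the 2633 regions matched among the first 3793 of both replicate lists, 85 (3.23%) had no thresholded summit within 100 bp, 55 had none within 250 bp and 52 had no pooled region within 250 bp. Thresholded peaks are pooled regions too. The difference between 55 and 52 is therefore the number with only a weaker pooled region within 250 bp, as at sn. Among the windows of the trichome genes, the sn window held 1 of the 85 and the others held 0. The cause was not tested.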
